A study of Mus musculus with 20 samples.

Results

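The enzymes of glucose and fructose handling chosen by gene symbol and followed in whole kidney RNA of Alport mice were Hk1, Hk2, Pfkp, Pkm and Ldha on the glycolytic side, G6pc, Pck1 and Fbp1 on the gluconeogenic side, and Khk, which starts fructose breakdown. They are 9 of the 47069 genes in the count table, and all 9 passed the filter on low counts, as did 17622 genes in all. RNA-seq of total RNA was made from the kidneys of 20 male mice of a 129SJ x C57Bl/6J background, all killed at 15 weeks of age. Untreated wild-type mice (WT, n = 5) were set beside mice lacking Col4a3 on both alleles (Col4a3-/-), a model of Alport syndrome in which the collagen network of the glomerular filter fails and tubules and interstitium are damaged in turn. From 5 weeks of age the Col4a3-/- mice received weekly subcutaneous PBS (Veh, n = 6), subcutaneous Lademirsen every week at 50 mg/kg (Anti-miR-21, n = 6), an antisense drug that blocks the microRNA miR-21, or the angiotensin-converting enzyme inhibitor ramipril in the drinking water (ACEi, n = 3), at 11 mg/L by the labels and at 4 mg/kg by the deposited library table. Per the methods, ACEi mice also had weekly PBS injections, as Veh mice did, whereas WT mice received nothing.

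Glycolysis splits glucose to pyruvate, and lactate dehydrogenase turns pyruvate into lactate. Gluconeogenesis runs the other way, with its own enzymes at the steps that glycolysis makes irreversible: Pck1 makes phosphoenolpyruvate from oxaloacetate, Fbp1 removes a phosphate from fructose 1,6-bisphosphate, and G6pc releases free glucose. In the kidney the proximal tubule carries out gluconeogenesis and fructose breakdown and burns mainly fatty acids and other oxidative fuels, whereas glycolytic capacity is greatest in the distal parts of the nephron.

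The libraries held 28474301 to 29479629 counts each, so depth differed little between groups. Col4a3 had 194 to 237 CPM in WT, 27.9 to 46.3 in Veh, 45.9 to 74.8 in Anti-miR-21 and 42.8 to 56.2 in ACEi mice, where CPM is a count scaled to a common library size by the trimmed mean of M values (TMM). The extraction text of the labels names adipose tissue while the tissue label is kidney. Kidney markers were abundant in every library, and the sum of 5 adipocyte markers (Adipoq, Plin1, Cfd, Lep and Cidec) exceeded 100 CPM in 3 Veh mice (410, 366 and 351) and in 1 Anti-miR-21 mouse (224), against 0.525 to 56 in the other 16. In whole tissue, fewer cells of a type and less RNA per cell cannot be told apart.

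The promoters of 4 enzymes that fell together in Veh mice, and of Hk2, which rose most, are shown because the results turn on these 5 genes. Each line gives the 250 bases before the RefSeq start site (GRCm38.p6), and capitals mark GTTAAT or its complement ATTAAC (a core of the HNF1 motif, a transcription factor of proximal tubule and liver) and ACGTG or CACGT (the core of the hypoxia response element).
G6pc, chr11:101367466-101367715, + strand: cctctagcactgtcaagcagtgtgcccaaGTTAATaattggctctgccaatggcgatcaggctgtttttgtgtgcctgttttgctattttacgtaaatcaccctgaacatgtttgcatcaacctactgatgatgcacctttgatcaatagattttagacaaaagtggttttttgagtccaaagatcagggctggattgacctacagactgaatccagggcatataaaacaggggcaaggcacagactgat
Pck1, chr2:173152823-173153072, + strand: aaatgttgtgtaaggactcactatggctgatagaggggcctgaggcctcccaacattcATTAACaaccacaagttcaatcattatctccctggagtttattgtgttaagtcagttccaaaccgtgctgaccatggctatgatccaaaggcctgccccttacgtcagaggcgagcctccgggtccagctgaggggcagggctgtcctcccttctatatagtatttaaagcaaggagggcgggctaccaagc
Khk, chr5:30921309-30921558, + strand: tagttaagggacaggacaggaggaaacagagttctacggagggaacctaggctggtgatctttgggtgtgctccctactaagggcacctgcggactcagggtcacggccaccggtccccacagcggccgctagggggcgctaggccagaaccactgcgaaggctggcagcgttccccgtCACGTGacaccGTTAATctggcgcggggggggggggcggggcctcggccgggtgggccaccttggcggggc
Fbp1, chr13:62888283-62888532, - strand: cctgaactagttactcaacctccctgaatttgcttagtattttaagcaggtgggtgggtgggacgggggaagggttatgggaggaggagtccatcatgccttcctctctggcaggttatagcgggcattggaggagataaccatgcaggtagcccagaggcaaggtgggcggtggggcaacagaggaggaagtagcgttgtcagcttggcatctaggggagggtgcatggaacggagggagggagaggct
Hk2, chr6:82774455-82774704, - strand: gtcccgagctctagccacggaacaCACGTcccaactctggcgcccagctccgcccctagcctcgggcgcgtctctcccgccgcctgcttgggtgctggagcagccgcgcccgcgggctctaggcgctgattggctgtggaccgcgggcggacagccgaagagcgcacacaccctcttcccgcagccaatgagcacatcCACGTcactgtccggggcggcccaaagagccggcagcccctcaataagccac
GTTAAT on either strand occurred in 3 of the 12 RefSeq promoters of the 9 enzymes, those of G6pc, Pck1 and Khk. Fbp1 lacked it, 6.43% of 32851 promoters of this length held it, and no test of these shares was made. GTTAAT began at -192 in Pck1 and -60 in Khk, counted from the start site. ACGTG on either strand, found in 16.6% of all promoters, occurred in 4 of the 12 RefSeq promoters of the 9 enzymes, those of Hk2, Khk, Pkm and Ldha. In Khk and Ldha it overlaps CACGTG, the E-box, which 6.02% of promoters hold. Further motifs searched on both strands were TGACG, a core of the cAMP response element (17.8% of promoters, and upstream of Hk2, Khk, Ldha and Pck1), AGGTCA, a core bound by nuclear receptors (14%, upstream of G6pc and Pkm), and TATAAA (12.4%, upstream of G6pc). Pfkp, Hk1 and Fbp1 held none of the 6 in these windows.

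The first question was how the enzymes differed between diseased and healthy kidneys. In Veh mice G6pc, Pck1, Fbp1 and Khk fell to between 0.135 and 0.204 of their WT level, Ldha fell to 0.608, Hk2 rose 16.8-fold and Pfkp rose 1.71-fold. Hk1 and Pkm did not pass the test. Thus 7 of 9 enzymes passed edgeR's quasi-likelihood test at an adjusted p under 0.05, beside 73.0% of all genes tested. Of the 7, 2 were higher and 5 lower, beside 39.0% and 34.0% of all genes. The median log2 fold change was -0.72 over the 9 and 0.07 over all genes. CPM of Veh and WT did not overlap for these 7, as for 54.9% of all genes.

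**Figure D1:**
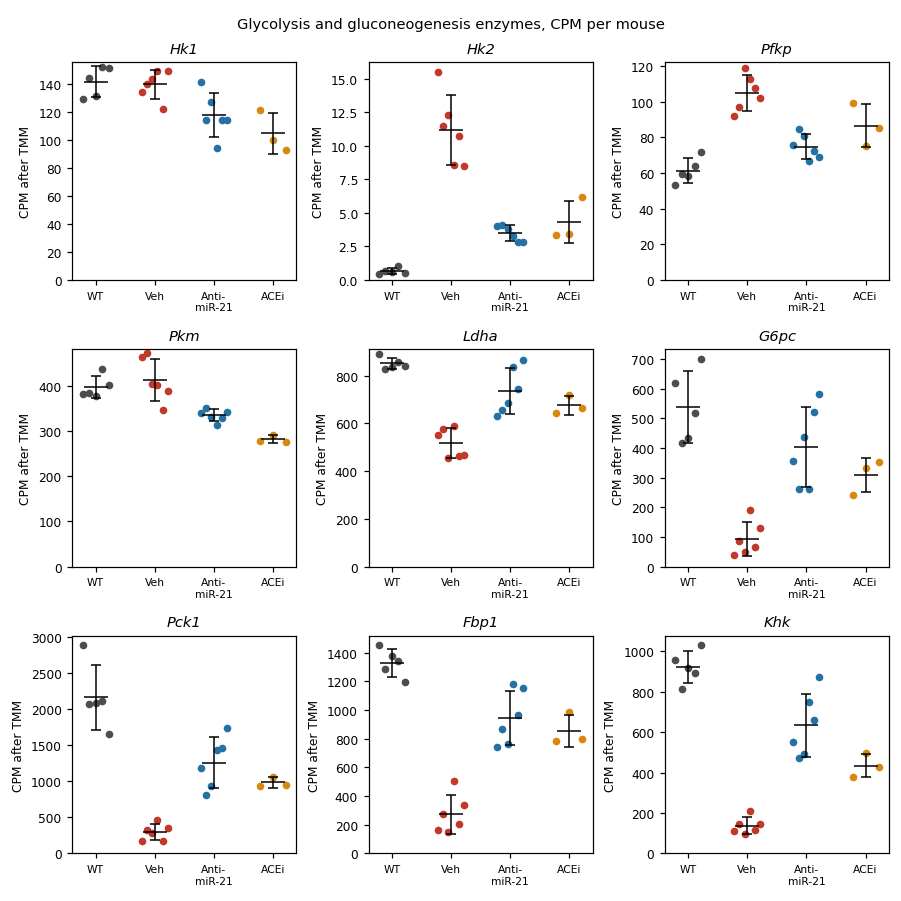
CPM after TMM (vertical axes, from 0) of the 9 enzymes in each of 20 mice, by group, with the group mean and SD as bars. Veh mice lie below all WT mice for Ldha, G6pc, Pck1, Fbp1 and Khk and above them for Hk2 and Pfkp, and the treated mice lie between for these 7 or reach into the WT range, with 1 ACEi mouse in the Veh range for Pfkp.

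G6pc, glucose-6-phosphatase, performs the last step of glucose release. Its CPM was 619, 416, 433, 518 and 701 in the WT mice and ranged in Veh from 40.8 through a median of 76 to 191, which is Veh mouse 4. All Veh mice were below all WT mice, and Veh had the widest relative spread of the 4 groups. The log2 fold change was -2.51 ± 0.33 (SE; edgeR quasi-likelihood test, adjusted p = 7.6e-07).

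Pck1, cytosolic phosphoenolpyruvate carboxykinase, had 2886, 2075, 2090.2, 2112 and 1653 CPM in WT mice. In Veh it ranged from 169 (mice 1 and 5) through a median of 305 to 460 (mouse 4). The groups were far apart, and the log2 fold change of -2.89 ± 0.24 (SE; edgeR quasi-likelihood test, adjusted p = 1.6e-09) was the lowest of the 9.

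Fbp1, fructose-1,6-bisphosphatase, had 1453, 1283, 1373, 1339 and 1195 CPM in WT mice. In Veh it ran from 152 (mouse 3) through 236 to 503 (mouse 4), with no overlap. Its log2 fold change was -2.29 ± 0.24 (SE; edgeR quasi-likelihood test, adjusted p = 3.4e-08).

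Khk, ketohexokinase, phosphorylates fructose. It had 956, 813, 919, 893 and 1031 CPM in WT and 96.6 (mouse 3), 131 (median) and 208.9 (mouse 4) in Veh. Again no Veh mouse reached the WT range, and the log2 fold change was -2.74 ± 0.18 (SE; edgeR quasi-likelihood test, adjusted p = 6.7e-11). The counts do not separate the A and C forms made from this gene.

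Veh mouse 4 was thus the highest Veh mouse for all 4, and it also had the highest summed proximal tubule markers of its group. Among Anti-miR-21 mice, mouse 6 was highest for G6pc, Pck1 and Khk and for those markers, while mouse 4 was highest for Fbp1.

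Among the hexokinases, Hk1 is the broadly expressed form and Hk2 the inducible one. Hk2 had few counts in WT kidney, with 0.445, 0.656, 0.591, 1.06 and 0.545 CPM, or 10 to 26 counts per library. In Veh it ranged from 8.49 (mouse 6) through 11.1 to 15.5 CPM (mouse 1). Every Veh mouse was well above every WT mouse, with a log2 fold change of 4.07 ± 0.25 (SE; edgeR quasi-likelihood test, adjusted p = 2.1e-11).

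Hk1 had 129, 144, 131, 152 and 151 CPM in WT and 122 to 149 in Veh (median 142). The 2 groups overlapped almost fully. The log2 difference was -0.02, with a 95% interval of -0.21 to 0.17.

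Pfkp, the platelet form of phosphofructokinase, which commits sugar to glycolysis, had 53.0, 59.2, 58.5, 64.1 and 71.9 CPM in WT. In Veh it ran from 92.0 (mouse 1) through 105 to 119 (mouse 3), above all WT mice. The log2 fold change was 0.78 ± 0.09 (SE; edgeR quasi-likelihood test, adjusted p = 1.7e-07).

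Pkm, the muscle-type pyruvate kinase gene, had 382, 385, 378, 438 and 402 CPM in WT and 347 to 472 in Veh (median 403). The ranges overlapped, with a log2 difference of 0.06 and a 95% interval of -0.10 to 0.21. Its M1 and M2 splice forms are not separated here.

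Ldha, the A subunit of lactate dehydrogenase, had 890, 829, 837, 856 and 840 CPM in WT. Veh mice ranged from 453 (mouse 3) through 510 to 588 (mouse 4), all below WT. The log2 fold change was -0.72 ± 0.09 (SE; edgeR quasi-likelihood test, adjusted p = 6.1e-07), so that this glycolytic enzyme fell with the gluconeogenic ones.

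The calls for Hk1, Pkm and Ldha depended on the scaling, which moved the median of all genes. With library totals alone the median log2 fold change over all genes was 0.65, and Hk1 (0.56), Pkm (0.64) and Ldha (-0.14) were at -0.09, -0.01 and -0.79 relative to it, the same distances as under TMM. Under library totals Hk1 and Pkm then passed as higher in Veh (edgeR quasi-likelihood test, adjusted p = 0.000146 and 9.47e-07) and Ldha did not pass (adjusted p = 0.0623).

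Libraries had been run on 2 flow cells named in their headers. Within flow cell A (3 WT and 4 Veh mice) the log2 fold changes of Hk2, G6pc, Pck1, Fbp1 and Khk were 4.46, -3.00, -3.31, -2.80 and -2.92. Within flow cell B (2 and 2) they were 3.40, -1.92, -2.23, -1.59 and -2.43, smaller in each case, and the calls held in both. Without the 3 Veh mice and the Anti-miR-21 mouse over 100 CPM of adipocyte markers, the same number of enzymes, 7, passed in Veh against WT. Those 3 Veh mice were all on flow cell A, and Veh mouse 4 was on flow cell B. Veh mouse 5, also on flow cell A, had 1.92 CPM of adipocyte markers. Among Veh mice only that mouse sets flow cell apart from adipocyte markers, and the part of each was not tested.

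Several kidney cell markers moved with these enzymes. All 6 proximal tubule markers (Lrp2, Cubn, Slc34a1, Slc5a2, Slc22a6 and Slc22a8) were lower in Veh, and their summed level was 12312 to 15849 CPM in WT, 1346 to 3869 in Veh, 6931 to 11390.1 in Anti-miR-21 and 7067 to 9327 in ACEi mice. All 5 macrophage markers were higher in Veh, from 125 to 138 summed CPM in WT to 575 to 694, and all 3 markers of injured tubule (Havcr1, Lcn2 and Vcam1) rose from 22.1 to 34.5 to 802 to 1310. The 3 liver markers Alb, Apoa1 and Ttr, of an organ that shares these enzymes, did not pass between Veh and WT and summed to 302 to 451 CPM in WT and 79.5 to 447 in Veh. None of these markers was at 0 in a library. All 4 fibroblast markers (median log2 fold change 1.98) and all 5 T cell markers (3.48) were also higher in Veh, and all 3 erythroid markers were lower (-4.2). In the distal nephron 2 of 3 thick ascending limb markers, 2 of 3 distal tubule markers and 3 of 4 collecting duct markers were lower (medians -0.9, -1.85 and -1.26), while 1 of each of the first 2 lists was higher. Their part in the result was not tested.

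Set against the summed proximal tubule markers of the same mouse, the enzymes fell into 2 kinds. For G6pc, Pck1, Fbp1 and Khk the mean log2 ratio in Veh differed from WT by -0.02, -0.29, 0.25 and -0.11, compared with SDs among Veh mice of 0.32, 0.46, 0.15 and 0.24. For Ldha, Hk1, Pkm, Pfkp and Hk2 the same difference was 1.95, 2.65, 2.72, 3.45 and 6.79. In Anti-miR-21 and ACEi mice the 4 former enzymes lay between -0.31 and 0.19 from WT. Slc34a1 gave the largest part of the sum (mean CPM 8510 in WT and 1350 in Veh). The 6 markers had log2 fold changes from -2.94 to -1.87 in Veh against WT, so ratios to single markers would differ. These ratios were chosen after the values were seen and are given as a description with no test.

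**Figure D2:**
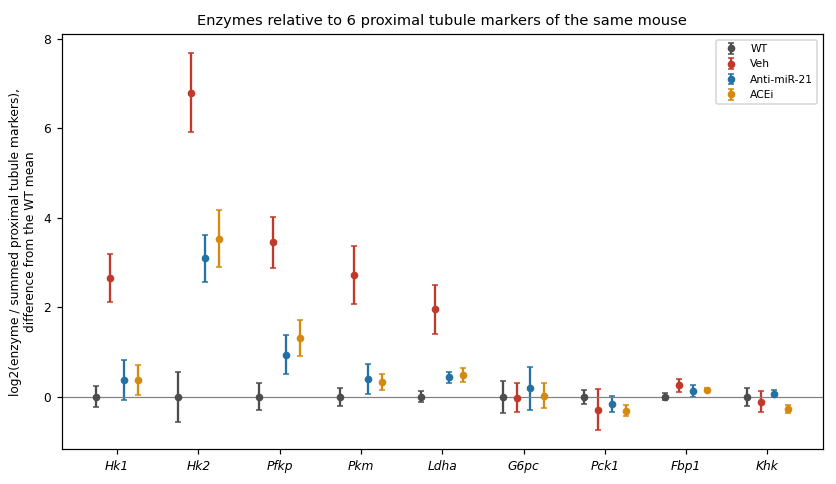
Mean log2 ratio of each enzyme to the summed CPM of 6 proximal tubule markers in the same mouse, as the difference from the WT mean (vertical axis), with the SD among mice as bars and 1 colour per group. G6pc, Pck1, Fbp1 and Khk stay within 0.31 of WT in all groups, whereas Hk2 lies 6.79 above WT in Veh mice.

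Levels were compared between genes per length, as FPKM (fragments scaled by exon length and library total). In WT kidneys the mean FPKM level was 740 ± 45.3 (SD, n = 5) for Fbp1, 681 ± 122 for Pck1, 656 ± 50.5 for Khk, 432 ± 12.9 for Ldha, 196 ± 41.9 for G6pc, 135 ± 12.5 for Pkm, 28.1 ± 3.03 for Hk1, 12.4 ± 1.61 for Pfkp and 0.0998 ± 0.0394 for Hk2. The first 3 exchanged ranks between mice, with Fbp1 highest in 3, and the ranges of the others did not meet. In Veh kidneys Ldha had the highest FPKM of the 9 in all 6 mice, at 396 ± 37.2 (SD, n = 6), ahead of Fbp1 (130 to 388) and Pkm (184 to 243), whose ranges overlapped. In all 6 Anti-miR-21 and all 3 ACEi mice Fbp1 again had the highest FPKM. The FPKM entries of Hk1 and Pfkp share bases with Hk1os and Pitrm1 on the opposite strand, Hk2 overlaps Gm17034 on the opposite strand, and Pkm overlaps Gm49759 on its own. Without knowing whether counting used strand, the levels and counts of these 4 enzymes may include reads of those genes.

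The other enzymes of these pathways were read from lists of 19, 9 and 12 genes. Under TMM, 12 of 18 other glycolytic enzymes tested were lower in Veh and 3 higher. Their median was -0.53 on the log2 scale, beside 34.0% lower and 39.0% higher among all genes. The 12 included Pgam2 (-1.56), Pgk1 (-1.18), Pfkm (-1.17), Tpi1 (-1.06) and Gapdh (-0.84), which act between phosphofructokinase and phosphoglycerate mutase. The 3 that rose were Hk3 (3.56), a hexokinase of leukocytes, Eno2 (2.36), the neuronal enolase, and Pklr (0.40), the liver and red cell pyruvate kinase. These counts depend on the scaling, as library totals moved the median of all genes from 0.07 to 0.65. By mean FPKM, scaled by library total, Aldoa (636 in WT and 689 in Veh), Ldhb (976 and 1065), Gpi1 and Bpgm were higher. Tpi1 (440 and 318), Gapdh (646 and 536), Pfkm, Aldoc, Pgam1, Pgam2 and Eno1 were lower, and Pgk1 was not compared. The same limit holds for the lists that follow.

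Of 9 other enzymes of gluconeogenesis and fructose handling, 6 were lower and 2 higher, with a median log2 fold change of -1.84, against the same shares of all genes. Pcx, which feeds pyruvate into gluconeogenesis (-2.66), Sord, which makes fructose from sorbitol (-2.47), Slc37a4, the glucose-6-phosphate transporter that serves G6pc (-2.39), and Tkfc (-1.84), which acts after Khk, fell nearly as far as the 4 enzymes above. Pck2, the mitochondrial counterpart of Pck1 (1.07), and Fbp2, the muscle counterpart of Fbp1 (1.0), rose. Akr1b3, which makes sorbitol, had a log2 difference of -0.54 and did not pass.

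Among 11 tested regulators of flux, 5 were higher and 5 lower in Veh, not far from the shares of all genes (39.0% and 34.0%). Pfkfb4 (1.02), Pfkfb3 (0.58) and Pfkfb1 (0.54), which set the level of the phosphofructokinase activator fructose 2,6-bisphosphate, were higher, as were Pdp1 (1.0) and Pdk4 (0.59), a phosphatase and a kinase of pyruvate dehydrogenase. Pdk3 (-1.5), Pdk2 (-1.5) and Pdha1 (-1.38), 2 further kinases and the catalytic subunit, were lower, with Pdk1 (-0.25) and Tigar (-0.25). Members of 1 enzyme family thus moved in opposite directions.

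**Figure D3:**
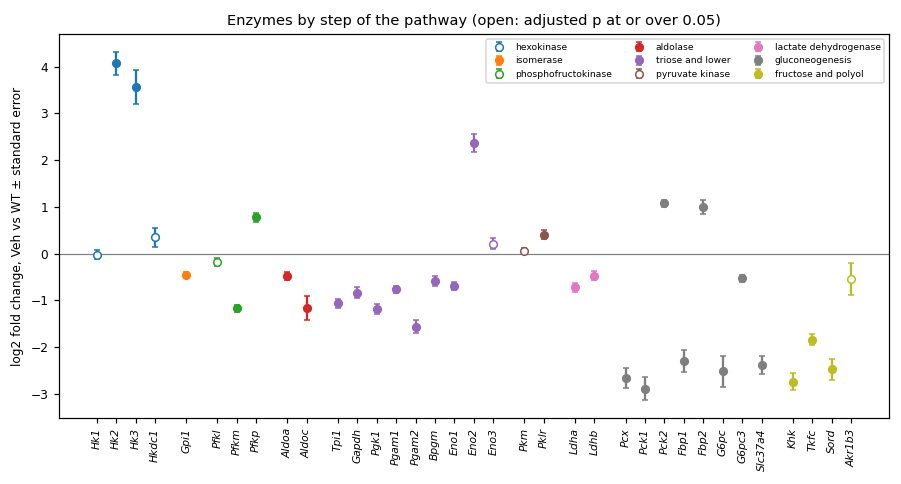
Log2 fold change of Veh against WT with its standard error (vertical axis) for the enzymes ordered by step of the pathway, coloured by step. Filled points had an adjusted p under 0.05 in edgeR and open points did not. Hk2, Hk3 and Eno2 stand above 2, whereas Pcx, Pck1, Fbp1, G6pc, Slc37a4, Khk and Sord stand below -2.

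The second question was whether each treatment moved the enzymes away from the Veh level. Both comparisons share the 6 Veh mice, so their values are given side by side and not as independent evidence. In Anti-miR-21 mice all 9 enzymes passed edgeR's quasi-likelihood test against Veh, beside 59.2% of all genes. Of them 5 were higher and 4 lower, beside 28.8% and 30.5%. In ACEi mice all 9 also passed, beside 40.1% of all genes, and again 5 were higher and 4 lower, beside 21.0% and 19.1%. The median log2 fold change of the 9 was 0.51 under Anti-miR-21 and 0.39 under ACEi, against -0.04 and -0.05 over all genes. CPM did not overlap Veh for 7 of 9 under Anti-miR-21 (36.4% of all genes) and for 8 of 9 under ACEi (38.6%).

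Khk in Anti-miR-21 mice ranged from 471 through a median of 605 to 871 CPM, and it was 380, 495 and 427 in the ACEi mice. Both groups were wholly above the Veh range, by log2 fold changes of 2.20 ± 0.17 and 1.65 ± 0.20 (SE; edgeR quasi-likelihood test, adjusted p = 2.9e-08 and 1.3e-05). Pck1 ranged from 807 through 1307 to 1738 CPM in Anti-miR-21 mice and was 935, 1065 and 949 in ACEi mice. It also stood above all Veh mice, with log2 fold changes of 2.11 ± 0.23 and 1.75 ± 0.26 (SE; edgeR quasi-likelihood test, adjusted p = 3e-07 and 4.6e-05).

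G6pc had 261, 397 and 581 CPM as its lowest, median and highest values in Anti-miR-21 mice, and 242, 332 and 351 CPM in ACEi mice. No treated mouse was within the Veh range, and the log2 fold changes were 2.10 ± 0.32 and 1.71 ± 0.36 (SE; edgeR quasi-likelihood test, adjusted p = 1.1e-05 and 0.00088). Fbp1 had 741, 916 and 1181 CPM in Anti-miR-21 mice and 780, 983 and 794 in ACEi mice. The log2 fold changes were 1.80 ± 0.23 and 1.65 ± 0.26 (SE; edgeR quasi-likelihood test, adjusted p = 1.7e-06 and 8e-05), again with no overlap.

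Hk2 fell under both treatments. Anti-miR-21 mice ranged from 2.79 through 3.55 to 4.12 CPM, and ACEi mice had 3.38, 3.43 and 6.16, the last being ACEi mouse 3. All were below the lowest Veh mouse and above the highest WT mouse. The log2 fold changes against Veh were -1.69 ± 0.19 and -1.37 ± 0.24 (SE; edgeR quasi-likelihood test, adjusted p = 4.1e-07 and 2e-04).

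Pfkp ranged from 66.7 through 74.0 to 84.9 CPM in Anti-miR-21 mice, below all Veh mice, with a log2 fold change of -0.49 ± 0.09 (SE; edgeR quasi-likelihood test, adjusted p = 6.2e-05). In ACEi mice it was 99.1, 75.3 and 85.4 CPM, of which the first lay inside the Veh range. Its call there (log2 fold change -0.28 ± 0.11, SE; edgeR quasi-likelihood test, adjusted p = 0.041) was lost on leaving out any of Veh mice 2 to 6 (adjusted p from 0.0630 to 0.130), ACEi mouse 2 (adjusted p = 0.264) or ACEi mouse 3 (adjusted p = 0.118).

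Ldha rose under both treatments, to 631, 713 and 865 CPM (lowest, median and highest) in Anti-miR-21 mice and to 643, 720 and 664 in ACEi mice. Every treated mouse exceeded the Veh range. The log2 fold changes were 0.51 ± 0.09 and 0.39 ± 0.11 (SE; edgeR quasi-likelihood test, adjusted p = 5.9e-05 and 0.0071), and the second did not pass under library totals (0.12, adjusted p = 0.21).

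Pkm and Hk1, which did not pass between Veh and WT, were lower under both treatments. Pkm ranged from 314 to 352 CPM in Anti-miR-21 mice (median 336) and was 279, 292 and 275 in ACEi mice. Anti-miR-21 mice overlapped the lowest Veh mouse, whereas ACEi mice were below all Veh mice. The log2 fold changes were -0.30 ± 0.07 and -0.55 ± 0.09 (SE; edgeR quasi-likelihood test, adjusted p = 0.00094 and 7.6e-05).

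Hk1 ranged from 94.3 to 141 CPM in Anti-miR-21 mice (median 114) and was 121, 99.7 and 92.7 in ACEi mice, the first just below the lowest Veh mouse. The log2 fold changes were -0.25 ± 0.09 and -0.42 ± 0.11 (SE; edgeR quasi-likelihood test, adjusted p = 0.018 and 0.0043). The call under Anti-miR-21 was lost without Veh mouse 3, 4 or 6 (adjusted p from 0.0520 to 0.0625). Without the 4 mice over 100 CPM of adipocyte markers, 7 of 9 enzymes passed under Anti-miR-21, Hk1 (adjusted p = 0.187) and Pkm (adjusted p = 0.125) being lost, and 8 of 9 passed under ACEi.

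**Figure D4:**
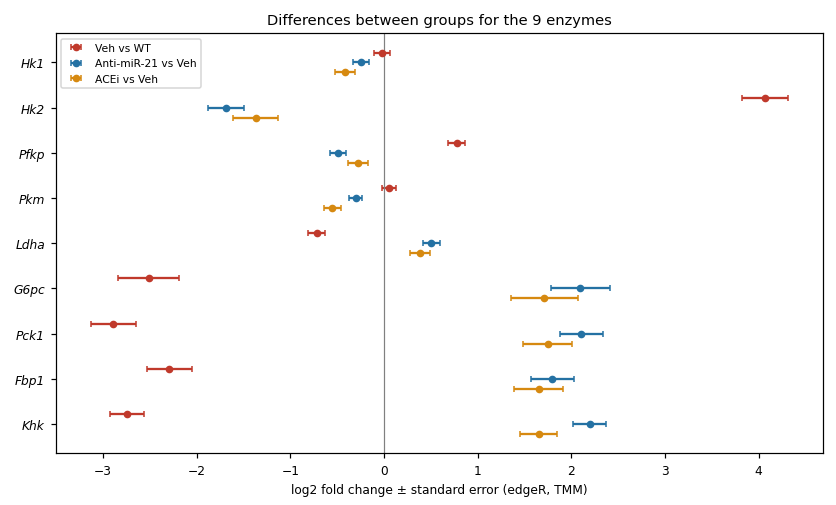
Log2 fold change with its standard error (horizontal axis) for the 9 enzymes in Veh against WT, Anti-miR-21 against Veh and ACEi against Veh. For the 7 enzymes that differed between Veh and WT both treatments point the opposite way to disease, whereas Hk1 and Pkm lie near 0 in disease and below 0 under both treatments.

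Of the 18 other glycolytic enzymes tested, 10 were higher and 3 lower in Anti-miR-21 than in Veh, beside 28.8% and 30.5% of all genes. In ACEi 6 were higher and 2 lower, a total close to the 40.1% of all genes called. The list counts in this paragraph are under TMM and depend on the scaling. Library totals moved the median of all genes from -0.04 to -0.38 for Anti-miR-21 and from -0.05 to -0.32 for ACEi. Eno2 fell under both (-0.83 and -0.74), Pgk1 rose under both (0.82 and 0.71), and Hk3 fell under Anti-miR-21 (-0.98), with a value of -0.66 that did not pass under ACEi. Of the 9 other gluconeogenic and fructose enzymes, 6 rose and 1 fell under Anti-miR-21 and 5 rose and 1 fell under ACEi, beside 59.2% and 40.1% of all genes called in either direction. Pcx (1.95 and 1.77), Sord (1.86 and 1.69), Slc37a4 (1.62 and 1.58) and Tkfc (1.44 and 1.14) rose under both, and Pck2 (-0.63 and -0.45) fell under both. Among the 11 regulators of flux, Anti-miR-21 gave 3 higher and 4 lower genes, near the 59.2% of all genes called, and ACEi gave 3 and 3 (40.1% of all genes), with Pdk2, Pdk3 and Pdha1 higher and Pfkfb4 and Pdp1 lower in each.

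Both treatments left a distance to WT. As a share of the log2 CPM distance from the Veh to the WT mean, Anti-miR-21 mice stood at 83.1% ± 18.3 (SD, n = 6) for G6pc, 79.3% ± 12.6 for Khk, 78.8% ± 12 for Fbp1, 72.8% ± 14.2 for Pck1, 69.6% ± 25.8 for Ldha, 62.7% ± 17.3 for Pfkp and 41.7% ± 6.22 for Hk2. ACEi mice stood at 73.4% ± 7.65 (SD, n = 3) for Fbp1, 70.6% ± 10.7 for G6pc, 62.2% ± 3.46 for Pck1, 60.8% ± 6.85 for Khk, 54.0% ± 11.6 for Ldha, 36.3% ± 25.5 for Pfkp and 34.8% ± 12.3 for Hk2. On this log2 scale Hk2 had the lowest mean share in both groups, a difference from the other enzymes that was not tested. The order depends on the scale. Mean CPM of Hk2 was 0.66 in WT, 11.2 in Veh, 3.47 in Anti-miR-21 and 4.33 in ACEi mice. That of Pck1 was 2160, 292, 1260 and 983, so in CPM Hk2 covered the larger part of its distance.

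Against WT, 6 of 9 enzymes passed edgeR's quasi-likelihood test in Anti-miR-21 mice (43.7% of all genes) and 7 of 9 in ACEi mice (47.7%). Hk2 remained 5.21-fold and 6.49-fold above WT, respectively. Pck1 was 1.72-fold and 2.20-fold lower, and Khk 1.46-fold and 2.13-fold lower. Pfkp was 1.22-fold and 1.41-fold higher, and Ldha was 1.26-fold lower in ACEi mice. Hk1 (1.20-fold and 1.36-fold) and Pkm (1.19-fold and 1.41-fold), which had not passed between Veh and WT, were below WT under both treatments. Those calls of Hk1 and Pkm, and that of Ldha, were among the calls lost under library totals. G6pc had log2 differences of -0.42 and -0.80 and Fbp1 of -0.49 and -0.64, and neither passed (adjusted p = 0.3 and 0.1 for G6pc, 0.095 and 0.074 for Fbp1). The 95% intervals for G6pc, -1.08 to 0.24 and -1.62 to 0.02, include differences as large as those of Pck1. In these WT comparisons library totals gave fewer calls, 3 for Anti-miR-21 and 4 for ACEi. Under Anti-miR-21, then, not all of Hk2, Pfkp, Pck1 and Khk passed with library totals. By limma on log2(FPKM + 1) the calls were 2 and 4.

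The third comparison was between the treatments. None of the 9 enzymes passed edgeR's quasi-likelihood test between Anti-miR-21 and ACEi, whereas 0.584% of all genes did. DESeq2 and limma on log2(FPKM + 1) called 0 and 0 of the 9. Of the 9, 2 had an unadjusted p under 0.05, Pkm (adjusted p = 0.19) and Khk (adjusted p = 0.24). Pkm was higher in every Anti-miR-21 mouse than in every ACEi mouse, with a log2 difference of 0.25 and a 95% interval of 0.07 to 0.43. Khk differed by 0.54 with an interval of 0.11 to 0.98, and its ranges overlapped. The intervals of the other 7 included 0 and were widest for G6pc, from -0.40 to 1.17, so differences of over 2-fold in that enzyme remain within the interval.

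Ratios between paired enzymes within a mouse do not depend on the scaling of libraries. For 7 pairs, log2 count ratios were tested in 4 comparisons by two-sided exact permutation tests, with p adjusted over the 28. These ratios use the same counts as the tests of single enzymes above and are not independent evidence. The ratio of G6pc to Hk1, which act in opposite directions on glucose, was 1.90 ± 0.32 (SD, n = 5) in WT, -0.77 ± 0.79 (n = 6) in Veh, 1.72 ± 0.47 (n = 6) in Anti-miR-21 and 1.55 ± 0.48 (n = 3) in ACEi mice. Veh mice lay below all other mice, and the difference was -2.67 against WT, 2.49 for Anti-miR-21 against Veh and 2.33 for ACEi against Veh (exact permutation test, adjusted p = 0.0135, 0.0135 and 0.0392).

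Fbp1 to Pfkp and Pck1 to Pkm, the other opposed steps, gave the same order of groups. The log2 ratio of Fbp1 to Pfkp was 4.44 ± 0.26 in WT, 1.24 ± 0.67 in Veh, 3.64 ± 0.40 in Anti-miR-21 and 3.30 ± 0.37 in ACEi mice (SD). That of Pck1 to Pkm was 2.43 ± 0.32, -0.58 ± 0.59, 1.86 ± 0.45 and 1.80 ± 0.06 (SD). The adjusted p were again 0.0135, 0.0135 and 0.0392 by the exact permutation test for both ratios, and neither passed between the treatments (differences 0.34 and 0.06, adjusted p = 0.319 and 0.79).

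Isoenzyme ratios moved less evenly. Hk2 to Hk1 rose by 4.09 in Veh (exact permutation test, adjusted p = 0.0135) and fell by 1.41 under Anti-miR-21 (adjusted p = 0.0135), while its fall by 0.97 under ACEi did not pass (adjusted p = 0.1). Pfkp to Pfkl rose by 0.96 in Veh (exact permutation test, adjusted p = 0.0135) and fell by 0.46 under Anti-miR-21 (adjusted p = 0.0331), with a difference of 0.03 under ACEi (adjusted p = 0.881). Ldha to Ldhb fell by 0.25 in Veh (exact permutation test, adjusted p = 0.0392) and was 0.25 higher under Anti-miR-21 than Veh (adjusted p = 0.0331). Pkm to Pklr was lowest in ACEi mice, 0.66 below Veh and with Anti-miR-21 0.50 above it (exact permutation test, adjusted p = 0.0392 for both), and no ACEi mouse overlapped either group. With 3 ACEi mice the smallest unadjusted p that these tests allow is 0.0238.

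**Figure D5:**
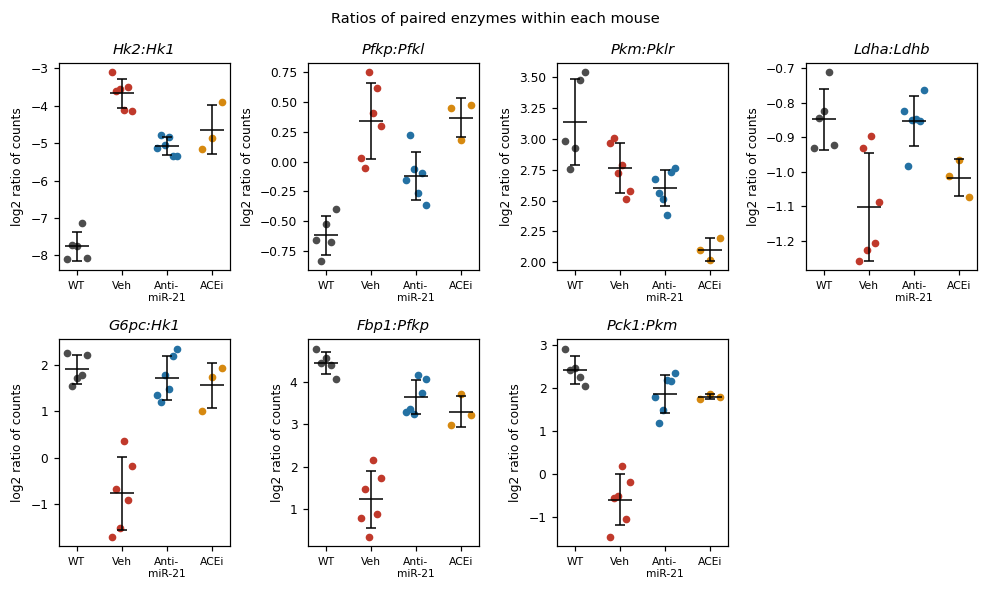
Log2 ratio of counts (vertical axes, separate scales) for 7 pairs of enzymes in each mouse, by group, with mean and SD. For G6pc:Hk1, Fbp1:Pfkp and Pck1:Pkm the 6 Veh mice lie below the mice of the other 3 groups.

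Across the 20 mice, which share the group differences above, the log2 CPM of G6pc, Pck1, Fbp1 and Khk correlated with each other at Pearson r of 0.94 to 0.98, and that of Ldha with them at 0.86 to 0.95. Hk2 and Pfkp correlated with each other at 0.87 and with those 5 at -0.77 to -0.91. Hk1 correlated with Pkm at 0.78. The 2 protein-coding genes most like each enzyme among 12565 compared were Pecr (r = 0.997) and Hgd (0.996) for Fbp1, Tkfc and Ccdc107 (both 0.997) for Khk, 4833439L19Rik (0.989) and Dlst (0.988) for Pck1, Acox2 and Azgp1 (both 0.975) for G6pc, and Mdh2 (0.986) and Psmc2 (0.984) for Ldha. For Hk2 they were Arpc1b (0.992), a subunit of the actin-nucleating Arp2/3 complex, and Chrnb1 (0.990), for Pfkp Pla2g7 (0.962) and Unc13b (0.948), for Hk1 Stk39 (0.904) and Pak6 (0.900), and for Pkm AI661453 (0.903) and Rab25 (0.888).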

How the data were processed

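Per the labels, kidney RNA of 20 mice was sequenced on an Illumina HiSeq 2000 as 100 bp paired-end reads. Per the methods, the authors aligned reads with OmicSoft Studio 9.0 (OSA4 aligner) to GRCm38. They deposited estimated counts per Ensembl gene (27.9% of positive values not whole), FPKM per gene, the count of alignments per library, and the other library and gene details used here (exon lengths, coordinates). Whether counting used strand is not given in the sources used here. For FPKM, 3 columns match no sample and were not used. The highest correlation between 2 libraries was 0.9926, so no library was a copy of another. Replicates are separate mice.

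Counts were rounded and tested with edgeR 4.0.16 (quasi-likelihood, TMM, filterByExpr with a minimum count of 10 and a total of 15), with 1 coefficient per group over all 20 mice. Benjamini-Hochberg adjustment ran over all 17622 genes tested, with a threshold of 0.05. Alternatives were DESeq2 1.42.0, limma 3.58.1 on log2(FPKM + 1) and log2(FPKM + 0.1), 3 other scalings, 2 other filters, flow cell as a term or alone, a fit of the compared groups only, and omission of single mice. Leaving out mice over 100 CPM of adipocyte markers was added after seeing the data. Flow cell A held 1 ACEi mouse and flow cell B 1 Anti-miR-21 mouse. Ratios used counts + 0.5 and exact permutation tests (scipy 1.17.1). Promoters are from RefSeq. The edgeR step was tested on simulated data. Replicate numbers were given in accession order.

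The members and gene lists were chosen with earlier results of these data known. Genes named were the 9 enzymes, the listed pathway and marker genes, Col4a3 and, per enzyme, the 2 protein-coding genes with the highest Pearson correlation among those whose mean log2 CPM was 1 or more (prior count 2). Values of some listed genes are not reported here, although the counts over their lists include them.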

Additional observations from a re-analysis of the deposited data

How the results depend on the processing

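All 9 enzymes lie far above the counting floor except Hk2 in WT. The count of enzymes called in Veh against WT was 7 whichever mouse was left out, and it ranged from 8 to 9 in each treatment against Veh, from 0 to 0 between treatments, from 5 to 7 for Anti-miR-21 against WT and from 6 to 7 for ACEi against WT. The share of all genes called ranged from 70.9% to 72.8% for Veh against WT, from 54.8% to 58.9% for Anti-miR-21 against Veh, from 27.6% to 41.7% for ACEi against Veh, from 0.117% to 1.22% between treatments, from 37.8% to 45.1% for Anti-miR-21 against WT and from 38.1% to 47.8% for ACEi against WT. Ratios called ranged from 5 to 6 for Veh against WT, from 4 to 6 for Anti-miR-21 against Veh, and from 0 to 0 in both comparisons with ACEi, where fewer mice raise the smallest p that the test allows.

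In flow cell B alone 4 enzymes and 9.06% of all genes passed for ACEi against Veh, and 29.7% of genes for ACEi against WT, with fewer mice. With no filter, which adds genes of few counts, the share of genes called was 37.4% and 23.7% for Anti-miR-21 and ACEi against Veh, 25.9% and 28.7% against WT and 0.243% between treatments. Without mice over 100 CPM of adipocyte markers it was 26.7% for ACEi against Veh and 0.365% between treatments. Between treatments it was 1.12% with at least 10 counts in every sample, 2.47% by DESeq2 and 0.266% by limma on log2(FPKM + 0.1). For Anti-miR-21 against WT 3 enzymes passed under library totals, 3 in flow cell A and 2 by limma with either pseudocount. For ACEi against WT 4 passed under library totals and by limma with either pseudocount. The causes of these shifts were not tested.

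Directions turned for the values that follow. They include Pkm in Anti-miR-21 against WT, which had passed under TMM (log2 fold change -0.25, edgeR quasi-likelihood test, adjusted p = 0.01). Hk1 in Veh against WT was 0.088 under upper-quartile scaling, 0.56 under library totals, 0.042 with at least 10 counts, 0.0025 in flow cell A, 0.56 and 0.57 by limma with pseudocounts 1 and 0.1, and from -0.051 to 0.019 with a mouse left out, being 0.0048, 0.0033 and 0.019 without WT mouse 4, WT mouse 5 and Veh mouse 5. Pkm there was -0.09 in flow cell B and -0.063 without the mice rich in adipocyte markers. In Anti-miR-21 against WT, Pkm was 0.0018 and 0.0019 by limma. Ldha there, -0.21 under TMM, was 0.023 under library totals and 0.025 by limma with either pseudocount. Hk2 between treatments, -0.32 with all mice, was 0.031 without ACEi mouse 3 (range -0.47 to 0.031). Pfkp to Pfkl in ACEi against Veh was -0.034, -0.052, -0.012 and -0.027 (range to 0.12) without Veh mouse 1, Veh mouse 2, ACEi mouse 1 and ACEi mouse 3. Between treatments G6pc to Hk1 was -0.11 without ACEi mouse 1 (range to 0.35), and Pck1 to Pkm -0.0021 and -0.033 without Anti-miR-21 mice 4 and 6 (range to 0.2). Library totals moved the share of calls that were higher in Veh from 53.4% to 81.2%. No paired analysis was possible because replicate numbers were given in accession order and pair no mice.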
